A study of Sus scrofa with 6 samples.

Results

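The 77 genes described here encode proteasome subunits (37 genes with symbols starting in PSMA, PSMB, PSMC, PSMD or PSME), ubiquitin-conjugating enzymes (24 UBE2 genes) and ubiquitin-specific proteases (16 USP genes). They were chosen by symbol from the 6765 genes that the annotation of the pig array pairs with a single symbol, and each gene is represented by its probe set with the highest mean log2 signal over all 6 arrays. The USP genes are not conjugating enzymes, since their products take ubiquitin off proteins. They are set beside the UBE2 genes as the opposing arm of the same pathway. PSMB9, UBE2S and USP14 are not analysed here.

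The samples were pig embryos made by nuclear transfer, in which the nucleus of a cultured cell is placed in an oocyte, and the donor cells of those nuclei. Anti-DJ1 embryos (2 arrays) were injected with an antibody against DJ-1, a redox-sensitive protein, IgG embryos (2 arrays) with control immunoglobulin, and non-injected embryos (1 array) with nothing. Each embryo sample pooled between 23 and 26 embryos, collected 28 h after transfer when many had just reached the 2-cell stage. The recipient oocytes were obtained through a slaughterhouse. The donor cells (1 array) were cultured fibroblasts established from an adult Meishan pig, so all embryos carry nuclei of these cells and cytoplasm of other animals. The arrays came in 2 trials with biologically different samples: all 4 groups were run in trial 1, and only the injected groups in trial 2.

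Proteins are marked for destruction by a relay. An activating enzyme (E1) hands ubiquitin to a conjugating enzyme (E2, the UBE2 family), a ligase (E3) places it on the target, and deubiquitinases such as the USP proteins can remove it again. The marked protein is degraded by the 26S proteasome, a 20S barrel of alpha and beta subunits capped by a 19S particle. The barrel holds the proteolytic sites. The ATPases of the cap (PSMC genes) unfold the target, and its other subunits (most PSMD genes) include those that bind ubiquitin and remove it. PSMB8, PSMB9 and PSMB10 replace the standard catalytic beta subunits in the immunoproteasome, and PSME1 and PSME2 form an alternative cap that goes with it. In eggs and early embryos this pathway is known for clearing maternal proteins and for driving the cell cycle.

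The arrays were first checked against their labels. Of 10 listed oocyte and early embryo markers, 6 were measured, and their summed signal was 48598 to 67909 on the embryo arrays against 162 on the donor array. Of 10 fibroblast markers, 9 were measured, with sums of 1593 to 1983 in embryos and 65218 in donor cells. Most of the donor sum came from VIM (31965) and FN1 (24455), and THY1 and S100A4 were also higher there. COL1A2 and COL3A1 differed less, at 459 and 584 in donor cells against 210 to 355 and 160 to 406 in embryos. COL5A2 read 68.0 against 6.95 to 106. DCN went the other way, at 5.58 in donor cells and 54.7 to 111 in embryos. In the donor cells DCN and LUM (1.71) were within the level of the array's Tag controls. Those Tag controls, whose highest signal ranged from 21.4 to 47.0 by array, serve below as the background. Summed markers of cumulus and granulosa cells (7 of 8 measured) were 102 to 323 in embryos and 124 in donor cells, and leukocyte markers (4 of 5 measured) 54.7 to 118 and 46.6. For EF1A the 3′ signal divided by the 5′ signal, a measure of RNA quality, ranged from 23.9 to 30.0 for trial 1 embryos and from 8.20 to 9.34 for trial 2 embryos, and was 4.23 for donor cells. It thus moves with both the trial and the embryo to donor comparison, and its part in the results was not tested.

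Signals are the deposited intensities. Changes are differences in log2(signal + 4.57) with the standard error (SE) of a limma fit to the 6 arrays that holds terms for group and trial, and a change passed where its Benjamini-Hochberg adjusted p over 14399 tested probe sets was under 0.05. Of the 77 genes, 71 were bright enough to be tested (35 proteasome, 23 UBE2 and 13 USP genes). PSMB8, PSMB10, UBE2QL1, USP3, USP18 and USP30 were not tested and are given by their signals. With trial in the fit, the change between embryos and donor cells equals the mean of the 3 trial 1 embryo arrays minus the donor array. The trial 2 arrays enter only the estimate of spread. The donor and non-injected groups have 1 array each, whose own spread is unknown, so their p-values rest on the spread between the other arrays. In pooled samples of this kind, fewer cells and less RNA per cell cannot be told apart.

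The comparison of embryos with donor cells shows which parts of the pathway the early embryo holds in its RNA at other levels than the cell that gave the nucleus. Of the 71 tested genes, 59 passed in limma (28 higher and 31 lower in embryos), where 72.9% of all tested probe sets passed, 36.4% higher and 36.5% lower. Among proteasome genes, 5 were higher and 21 lower of 35 tested. Among UBE2 genes, 15 were higher and 7 lower of 23, and among USP genes 8 were higher and 3 lower of 13. The median log2 change over all genes of each class was -0.97 for 37 proteasome genes, 0.94 for 24 UBE2 genes and 0.45 for 16 USP genes, against -0.23 over all 23999 probe sets. Over the 6765 genes with a single symbol, taken with 1 probe set each, the median was -0.32. Of the 5218 tested among them, 76.7% passed, 1840 higher and 2163 lower.

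These counts depend in part on how the arrays were brought to 1 scale. After quantile normalization the median of all probe sets was 0.11 and proteasome genes split into 8 higher and 18 lower. With a common 75th percentile it was 0.27 and they split into 12 higher and 17 lower. The calls over all tested probe sets moved too. They were 6249 higher and 4227 lower after quantile normalization, and 6706 higher and 3911 lower with the common percentile. Relative to the median of all probe sets, the proteasome median was -0.74 as deposited, -0.94 after quantile normalization and -0.61 with the common percentile. For UBE2 genes it was 1.17, 0.55 and 1.30, and for USP genes 0.68, 0.62 and 0.77. Of the 21 proteasome genes that were lower, 16 passed as lower under both scalings, and the exceptions were PSMA1, PSMB1, PSMD2, PSME3 and PSME4. All 5 proteasome genes, 15 UBE2 genes and 8 USP genes that were higher, and all 7 UBE2 genes that were lower, also kept their call and direction under both. Of the 3 lower USP genes only USP4 did.

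Array by array, all 5 embryo signals lay above the donor signal for 8 of 37 proteasome genes and below it for 21. For UBE2 genes the counts were 15 above and 8 below of 24, and for USP genes 8 above and 5 below of 16. Over all probe sets, 31.1% lay above and 39.4% below. Against the donor array, the proteasome median was -0.73, -0.81 and -1.03 on the trial 1 anti-DJ1, IgG and non-injected arrays. It was -0.14 and -0.48 on the trial 2 anti-DJ1 and IgG arrays, where the median of all probe sets was -0.08 on each. The proteasome gap was thus smaller in trial 2, and the 20S alpha median was 0.15 and 0.17 there. Over all embryo arrays the UBE2 median ran from 0.80 to 0.99 and the USP median from 0.39 to 0.76.

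**Figure D1:**
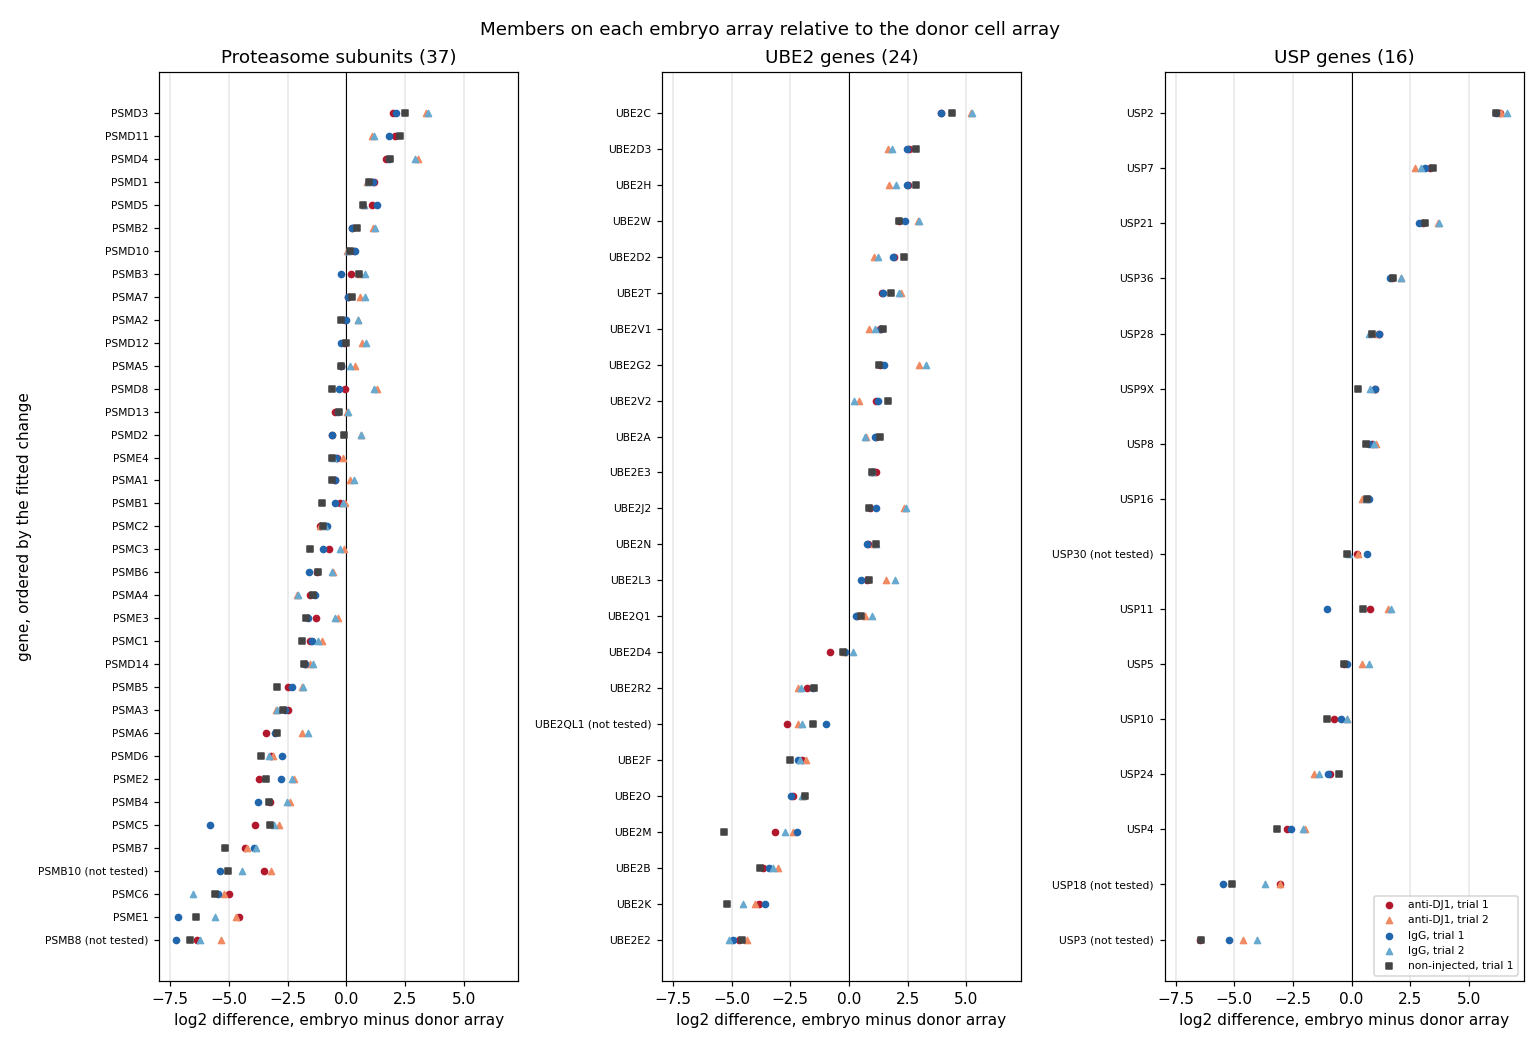
The log2 difference of each of the 5 embryo arrays from the donor array (x axis) is plotted for every proteasome (37), UBE2 (24) and USP (16) gene (y axis), ordered by the fitted change; circles are trial 1, triangles trial 2 and squares the non-injected array. Most proteasome genes lie left of 0 and most UBE2 and USP genes right of it, with PSMB8, PSME1 and PSMC6 among those farthest left and USP2 farthest right.

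Among the 7 alpha subunits, which form the outer rings of the 20S barrel and gate its entrance, 4 were lower in embryos and none was higher. PSMA6 had signals of 314 and 916 in anti-DJ1, 410 and 1068 in IgG and 426 in non-injected embryos, against 3352 in donor cells, which gave a change of -3.13 ± 0.18 (limma adjusted p = 7.44e-09). Every embryo array was below the donor array, and the trial 2 arrays were the higher ones. PSMA3 changed by -2.59 ± 0.13 and PSMA4 by -1.44 ± 0.13, with all embryo arrays below the donor. PSMA1 passed at -0.52 ± 0.14 (adjusted p = 0.0062), but its trial 2 signals of 2526 and 2866 were above the donor signal of 2271, and with the common 75th percentile its change was 0.12. PSMA2, PSMA5 and PSMA7 did not pass, with changes of -0.09, -0.23 and 0.11. With the common percentile those of PSMA2 and PSMA5 became 0.54 and 0.40 and passed, and PSMA7 passed as higher too.

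Of the 7 standard beta subunits, which line the inner rings, 5 were lower. They include all 3 that carry the proteolytic sites: PSMB5 (chymotrypsin-like), PSMB6 (caspase-like) and PSMB7 (trypsin-like). PSMB7 had signals of 213 and 224 in anti-DJ1, 279 and 295 in IgG and 115 in non-injected embryos, against 4300 in donor cells, a change of -4.47 ± 0.21 (adjusted p = 1.74e-09). PSMB5 read 226 and 335 in anti-DJ1, 248 and 346 in IgG and 161 in non-injected embryos against 1266 in donor cells, a change of -2.58 ± 0.22 (adjusted p = 3.57e-07). PSMB6 read 860 and 1396, 677 and 1348, and 878 in the same order against 2047, a change of -1.35 ± 0.17 (adjusted p = 1.06e-05). For each of these genes every embryo array lay below the donor array, with the widest gap for PSMB7. The structural subunit PSMB4 changed by -3.44 ± 0.22. PSMB1 passed at -0.59 ± 0.13 (adjusted p = 0.0016), but read 0.047 with the common 75th percentile. PSMB2 missed the threshold at 0.32 ± 0.14 (adjusted p = 0.05004), and PSMB3 was at 0.19 ± 0.28. Both passed as higher with the common percentile.

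The immunoproteasome genes were bright in donor cells and near background in embryos. PSMB8 had a signal of 834 in donor cells and 0.853 to 15.9 on the embryo arrays, all 5 within the Tag controls, so within trial 1 it was at least 25.8-fold lower in embryos. PSMB10 had 401 in donor cells and 5.30 to 39.99 in embryos, above the Tag controls on 1 embryo array. Neither gene was bright enough on average to be tested. PSME1, a subunit of the alternative cap, read 70.1 and 63.9 in anti-DJ1, 7.46 and 31.8 in IgG and 16.005 in non-injected embryos against 1749 in donor cells. Its fitted change was -6.05 ± 0.56 (adjusted p = 8.45e-07), but the IgG and non-injected values were within the Tag controls, so its size is not measured there. The anti-DJ1 arrays, above background, differed from the donor array by -4.55 and -4.68. Its partner PSME2 changed by -3.31 ± 0.34 (adjusted p = 2.28e-06), from 807 in donor cells to between 57.4 and 170 in embryos. The nuclear activator PSME3 was at -1.55 ± 0.35 (adjusted p = 0.0016) and PSME4, an activator known from germ cells, at -0.48 ± 0.17 (adjusted p = 0.025). The calls for PSME3 and PSME4 did not hold under both scalings, and PSME4 read 0.15 with the common 75th percentile.

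In the 19S particle the ATPases and the other subunits differed in their counts. All 5 measured ATPase genes were lower in embryos, under both scalings too. PSMC6 had signals of 187 and 157 in anti-DJ1, 132 and 61.6 in IgG and 122 in non-injected embryos, against 6060 in donor cells, a change of -5.35 ± 0.28 (adjusted p = 3.96e-09). PSMC5 changed by -4.32 ± 0.46 (adjusted p = 2.72e-06), with embryo signals between 12.8 and 130 and 971 in donor cells. No embryo array of either gene came near the donor array, and the lowest PSMC5 value, that of the trial 1 IgG array, was within the Tag controls. PSMC1, PSMC3 and PSMC2 changed by -1.63 ± 0.19, -1.08 ± 0.17 and -0.97 ± 0.14. For PSMC3 the trial 2 anti-DJ1 and IgG arrays read 1062 and 954 against 1136 in donor cells. Its call did not hold in the fit without trial. The other probe sets of PSMC2 gave -2.61 and -0.33, and the last did not pass.

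Of the 12 PSMD genes, 5 were higher and 3 lower in embryos. PSMD4, a ubiquitin receptor of the cap, had signals of 1166 and 2999 in anti-DJ1, 1293 and 2806 in IgG and 1318 in non-injected embryos against 360 in donor cells, a change of 1.79 ± 0.16 (adjusted p = 4.92e-07). PSMD11, a scaffold subunit of the lid, read 20683 and 10551, 17066 and 11226, and 23851 in the same order against 4896, a change of 2.05 ± 0.13 (adjusted p = 1.65e-08). PSMD3, another lid subunit, changed by 2.21 ± 0.17 (adjusted p = 1.14e-07), from 186 in donor cells to between 754 and 2135. For PSMD4, PSMD11 and PSMD3 every embryo array was above the donor array, and the extra probe sets of PSMD11 gave 2.65 and 1.57. PSMD5, which encodes an assembly chaperone of the cap base and no subunit of the finished particle, changed by 1.04 ± 0.14. PSMD1, a base scaffold, is uncertain: the probe set used here gave 1.09 ± 0.13 and the second gave -1.47 ± 0.15, both past the threshold.

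The lower PSMD genes were PSMD6 (-3.20 ± 0.23, adjusted p = 7.27e-08), a lid subunit, PSMD14 (-1.77 ± 0.15, adjusted p = 2.97e-07), the deubiquitinase of the cap, and PSMD2 (-0.43 ± 0.16, adjusted p = 0.029), a base scaffold. PSMD14 had signals of 1341 and 1544 in anti-DJ1, 1322 and 1711 in IgG and 1297 in non-injected embryos against 4509 in donor cells, so no embryo array reached the donor level. PSMD2 did overlap: trial 1 embryos read 678 to 986 and trial 2 embryos 1604 and 1634, around 1044 in donor cells, and its change was 0.20 with the common 75th percentile. PSMD8, PSMD10, PSMD12 and PSMD13 lay between -0.38 and 0.28 and did not pass. PSMD12, at -0.11, turned to 0.11 after quantile normalization and to 0.52, past the threshold, with the common percentile. PSMD10 also passed as higher with that percentile.

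**Figure D2:**
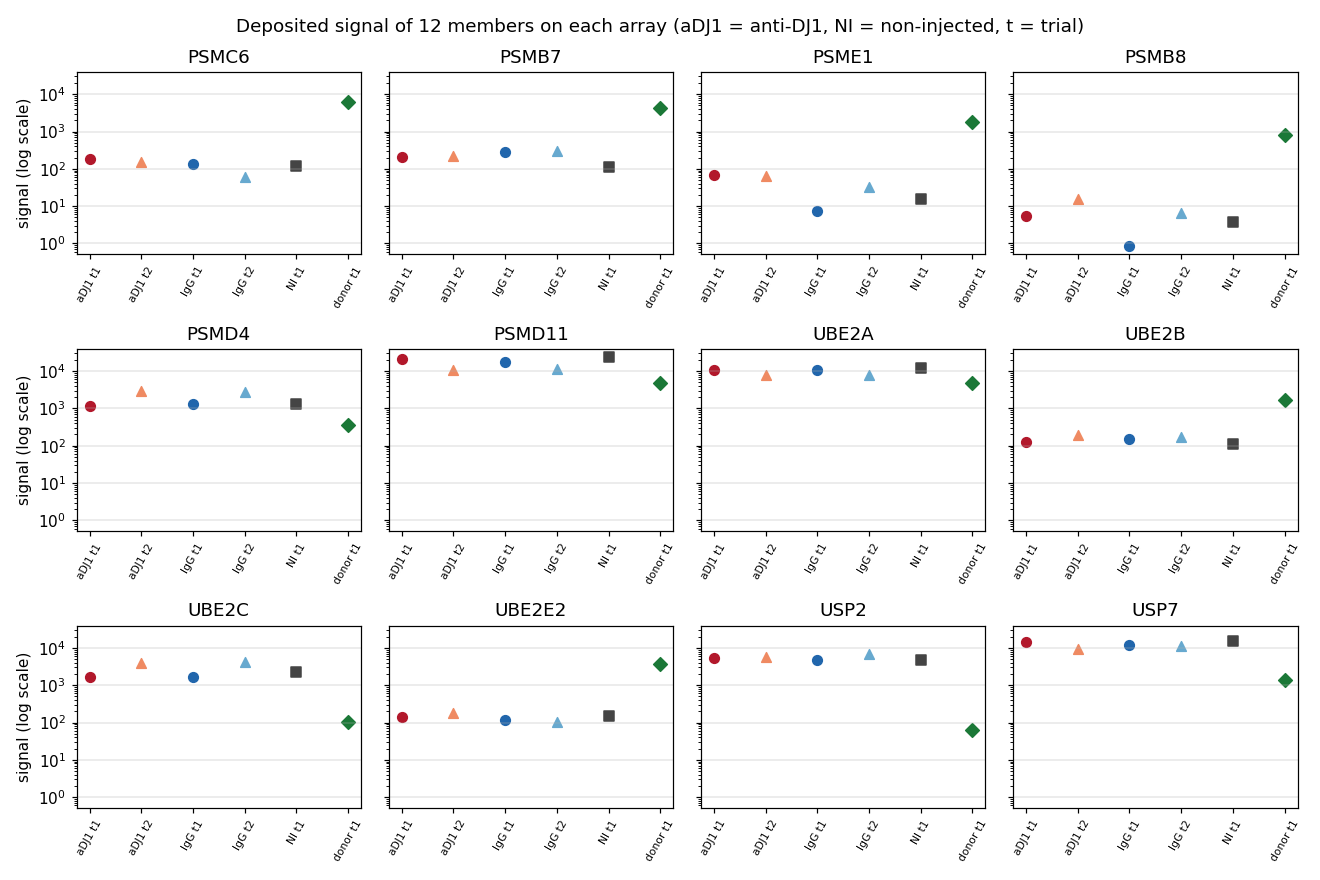
Deposited signal (y axis, log scale) of 12 genes on each of the 6 arrays (x axis; aDJ1 is anti-DJ1, NI non-injected, t the trial), 1 point per array. The donor array (diamond) is the highest for PSMC6, PSMB7, PSME1, PSMB8, UBE2B and UBE2E2 and the lowest for PSMD4, PSMD11, UBE2A, UBE2C, USP2 and USP7.

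The ubiquitin-conjugating enzymes changed in both directions, and 22 of 23 tested genes passed. UBE2C, the E2 that starts ubiquitin chains for the anaphase-promoting complex and so acts in mitotic exit, had signals of 1663 and 4042 in anti-DJ1, 1694 and 4140 in IgG and 2320 in non-injected embryos against 106 in donor cells, a change of 4.08 ± 0.15 (adjusted p = 1.5e-10). Its second probe set gave 3.44. UBE2H, a partner of the GID ligase, changed by 2.62 ± 0.12 (adjusted p = 1.46e-09), and UBE2W, which attaches ubiquitin to the N terminus of proteins, by 2.22 ± 0.18 (adjusted p = 2.1e-07), though the second UBE2W probe set, at 0.32 ± 0.49, did not pass. The broadly acting E2 genes UBE2D3 and UBE2D2 changed by 2.63 ± 0.12 and 2.04 ± 0.11. Their sequences are much alike and the UBE2D3 probe set is of a type that can bind several transcripts, so these changes are uncertain as to the gene. UBE2T, of the Fanconi anaemia pathway, changed by 1.53 ± 0.17.

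UBE2N and its catalytically inactive partners UBE2V1 and UBE2V2, which together build signalling chains not used for degradation, were all higher, at 0.90 ± 0.12, 1.37 ± 0.12 and 1.34 ± 0.12. UBE2N read 6719.5 and 8099.6 in anti-DJ1, 6561 and 8535 in IgG and 8524 in non-injected embryos against 3871 in donor cells, so all embryo arrays were above the donor array. UBE2G2 and UBE2J2, which serve degradation at the endoplasmic reticulum, changed by 1.37 ± 0.22 and 0.98 ± 0.16. The smallest passing increases were those of UBE2L3 at 0.72 ± 0.22, whose second probe set was at -0.44, and UBE2Q1 at 0.38 ± 0.14, whose second was at 0.03. Neither second probe set passed.

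The 7 lower UBE2 genes were UBE2E2, UBE2K, UBE2B, UBE2M, UBE2O, UBE2F and UBE2R2. UBE2E2 had signals of 140 and 175 in anti-DJ1, 116 and 102 in IgG and 151 in non-injected embryos against 3662 in donor cells, a change of -4.72 ± 0.26 (adjusted p = 6.35e-09). UBE2K, which builds degradation chains by itself, changed by -4.20 ± 0.30 (adjusted p = 6.53e-08), from 2223 in donor cells to between 56.9 and 181. In both genes the embryo arrays were far below the donor array and did not overlap it. UBE2M and UBE2F, the E2 enzymes for the ubiquitin-like protein NEDD8, were both lower, at -3.56 ± 0.51 (adjusted p = 4.07e-05) and -2.24 ± 0.27 (adjusted p = 7.74e-06). UBE2M read 44.8 and 78.2 in anti-DJ1, 88.3 and 61.9 in IgG and 6.18 in non-injected embryos against 428 in donor cells, and the non-injected value was within the Tag controls. UBE2R2, which serves cullin ligases, changed by -1.60 ± 0.17. UBE2O, which joins E2 and E3 functions in 1 protein, changed by -2.25 ± 0.22, but its second probe set gave 0.20 and did not pass.

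Close relatives differed in direction. UBE2A and UBE2B, mammalian counterparts of yeast RAD6 with largely shared function, changed by 1.20 ± 0.11 (adjusted p = 1.03e-06) and -3.62 ± 0.26 (adjusted p = 8.25e-08). UBE2A read 10859 and 7989 in anti-DJ1, 10511 and 7830 in IgG and 12006 in non-injected embryos against 4825 in donor cells. UBE2B read 125 and 196, 149 and 169, and 114 in the same order against 1630. Every embryo array was above the donor array for UBE2A and below it for UBE2B, and the second probe set of UBE2A gave 0.86. UBE2E3 changed by 1.03 ± 0.12 (adjusted p = 6.19e-06) where UBE2E2 was lower. This UBE2E3 probe set is of the type that can bind several transcripts. The extra UBE2E3 probe sets, not of that type, gave 1.12 and 0.82. These pairs were picked out after their values were seen. The remaining tested gene, UBE2D4, was at -0.40 ± 0.61 and did not pass, and UBE2QL1 was within the Tag controls on all 6 arrays.

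Of the ubiquitin-specific proteases, 8 were higher in embryos. USP2 had signals of 5392 and 5652 in anti-DJ1, 4887 and 6747 in IgG and 4851 in non-injected embryos against 63.7 in donor cells, a change of 6.21 ± 0.15 (adjusted p = 4.34e-12) that was the highest among the 71 tested genes. USP7, which stabilises MDM2 and p53, read 14411 and 9236 in anti-DJ1, 12300 and 11038 in IgG and 15608 in non-injected embryos against 1417 in donor cells, a change of 3.304 ± 0.14 (adjusted p = 6.24e-10). USP21, a nuclear protease acting on histone H2A, changed by 3.02 ± 0.16 (adjusted p = 4.47e-09). For these 3 genes the lowest embryo array was far above the donor array. USP36 (1.71 ± 0.23), a nucleolar protease, USP28 (1.06 ± 0.17), USP9X (0.76 ± 0.14), USP8 (0.74 ± 0.15), known from endosomal sorting, and USP16 (0.68 ± 0.14), which also acts on histone H2A, followed. The extra probe sets of USP16 ranged from 0.03 to 3.26.

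USP4 was lower at -2.84 ± 0.36 (adjusted p = 1.51e-05), with 62.9 and 113 in anti-DJ1, 73.1 and 104 in IgG and 45.9, within the Tag controls, in non-injected embryos against 455 in donor cells. USP24 and USP10 were at -0.81 ± 0.16 and -0.74 ± 0.15, but did not pass with the common 75th percentile. USP5, which takes apart free ubiquitin chains, was at -0.27 ± 0.23 (adjusted p = 0.31), with trial 1 embryos below and trial 2 embryos above the donor signal of 272. USP11 was at 0.08 ± 0.43. Of the genes not tested, USP3 had 597 in donor cells and 2.17 to 32.1 in embryos, all within the Tag controls, so within trial 1 it was at least 18.5-fold lower. USP18, which removes the interferon-induced modifier ISG15, had 410 in donor cells and 4.63 to 46.0 in embryos. USP30 lay between 23.5 and 45.0 in embryos and at 27.2 in donor cells.

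Among proteasome genes that passed with at least an 8-fold change, 8 were lower and 0 higher, among UBE2 genes 4 lower and 1 higher, and among USP genes 0 lower and 3 higher. Over all tested probe sets, 11.7% were that much lower and 10.3% that much higher. With several probe sets for 20 of the 77 genes, the direction was the same in all probe sets for 16 and mixed for PSMD1, UBE2D4, UBE2L3 and UBE2O.

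The fit without trial called 41 of the 71 genes between embryos and donor cells, and 7630 of the 14399 probe sets where the fit with trial called 10501, with 14 proteasome genes still lower and 4 still higher, 7 and 10 UBE2 genes, and 1 and 5 USP genes. When any injected array was left out, trial could not be kept in the fit and 37 to 39 genes passed (7543 to 7975 of all probe sets), of which 13 lower and 3 higher proteasome genes, 7 lower and 8 higher UBE2 genes, and 1 lower and 4 higher USP genes passed each time. Within trial 1 alone, with its 3 embryo arrays as 1 group, 55 passed (9293 of all probe sets).

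Other genes of the pathway, on lists chosen with earlier results of these data known, gave the following counts between embryos and donor cells. Of 5 measured assembly factors and inhibitors of the proteasome, 3 were lower and 1 higher. SEM1, a small lid subunit not named PSMD, read 75.3 to 105 in embryos and 4004 in donor cells, a change of -5.24 ± 0.28 (adjusted p = 4.47e-09). PAAF1 and the inhibitor PSMF1 changed by -2.79 ± 0.40 and -1.53 ± 0.27, and PSMG1, a chaperone of the alpha ring, by 2.69 ± 0.12 (adjusted p = 7.2e-10).

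Of 11 tested E1, ubiquitin and ubiquitin-like genes, 7 were lower and 2 higher. UBA2 and NAE1, subunits of the E1 enzymes for SUMO and NEDD8, changed by -2.45 ± 0.19 and -1.13 ± 0.18. SUMO2 (2.08 ± 0.12) and SAE1 (1.19 ± 0.19) were higher. Of 11 tested deubiquitinases outside the USP family, 6 were lower, led by COPS5 at -4.15 ± 0.23, the catalytic subunit of the COP9 signalosome that removes NEDD8 from cullins. STAMBP (1.88 ± 0.21) and UCHL1 (1.23 ± 0.12), an abundant protein of neurons and eggs, were higher.

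Of 13 tested cullin ligase genes, 5 were higher and 6 lower, with RNF7 at 2.39 ± 0.15 and CUL1 at 1.28 ± 0.14 against COPS3, within the Tag controls in all trial 1 embryos and so at least 21.5-fold lower there, and CUL2 at -5.34 ± 0.60. For CUL2 the non-injected array and the trial 1 anti-DJ1 array were within the Tag controls, so the size of its change is not measured. Of 9 tested genes of the anaphase-promoting complex, the ligase that UBE2C serves, 3 were higher and 5 lower. CDC20, its activator, read 583 and 1728 in anti-DJ1, 571 and 1769 in IgG and 700 in non-injected embryos and was within the Tag controls in donor cells, so within trial 1 it was at least 17.9-fold higher (adjusted p = 6.67e-11). ANAPC16 (-2.56 ± 0.24) and CDC26 (-2.33 ± 0.27) were lower. Of 17 other ligases, 9 were higher, led by RNF114 at 3.33 ± 0.11 and RNF13 at 2.46 ± 0.14, and 5 lower, led by UBE3A at -2.26 ± 0.16. Of 7 tested shuttle factors, 2 were higher and 3 lower, the latter led by the segregase VCP, which extracts ubiquitinated proteins, at -4.77 ± 0.25 (adjusted p = 4.21e-09).

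**Figure D3:**
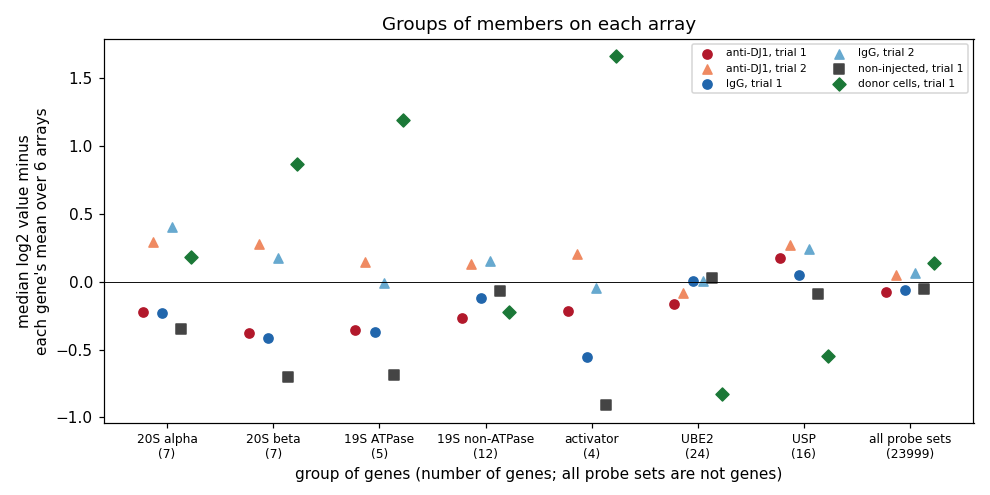
Median over the genes of each group of the log2 value minus the gene's own mean over the 6 arrays (y axis), by array, with the number of genes in parentheses; the last column takes all 23999 probe sets. The donor array is the highest for the 20S beta, ATPase and activator groups and the lowest for UBE2 and USP genes. It is also the highest for all probe sets, at 0.14. In each of the 5 proteasome groups, and for all probe sets, both trial 2 arrays lie above the 3 embryo arrays of trial 1.

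The trials themselves differed for the genes described here. Of the 71 tested genes, 31 were higher and 13 lower in trial 2 than in trial 1, where 32.3% of all tested probe sets passed, 18.9% higher and 13.4% lower. By class, 19 of 35 proteasome genes were higher and 4 lower, 8 and 7 of 23 UBE2 genes, and 4 and 2 of 13 USP genes. The median change was 0.61 for proteasome, 0.13 for UBE2 and 0.33 for USP genes, against 0.12 over all probe sets. Over the 6765 genes with a single symbol, taken with 1 probe set each, the median was 0.24. Of those tested, 38.5% passed, 26.4% higher. PSMD3 rose by 1.40 ± 0.14, PSMD4 by 1.24 ± 0.14 and UBE2C by 1.28 ± 0.13, while UBE2V2 fell by 0.88 ± 0.10 and PSMD11 by 0.79 ± 0.11. These 5 were picked out after their values were seen, and further probe sets of UBE2C and PSMD11 passed in the opposite direction. The EF1A ratio differed between the trials too, as given above, and trial and RNA quality cannot be told apart.

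Anti-DJ1 embryos were set against IgG embryos to ask what an antibody against DJ-1 does to transcripts. No gene of the 71 passed in limma, where 0% of all tested probe sets passed, and 5 genes had an unadjusted p under 0.05 against 838 of 14399 probe sets. The median change was -0.0023 for proteasome genes, -0.05 for UBE2 genes and -0.02 for USP genes, against -0.0077 over all probe sets. The sign was the same in both trials for 42 of 77 genes (54.5%), where it was for 50.6% of all probe sets.

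PSMC6 had signals of 187 and 157 in anti-DJ1 and 132 and 61.6 in IgG embryos, a change of 0.89 ± 0.24 with a confidence interval from 0.36 to 1.42 (limma adjusted p = 0.799). It was 0.49 in trial 1 and 1.29 in trial 2, and the groups did not overlap. PSME1 read 70.1 and 63.9 in anti-DJ1 and 7.46 and 31.8 in IgG embryos, where both IgG values were within the Tag controls, so it was at least 2.14-fold higher (limma adjusted p = 0.799). PSMC5 was at 1.08 ± 0.40, with 1.93 in trial 1 and 0.23 in trial 2, but the IgG array of trial 1 read 12.8, within its Tag controls, against 110 on that of trial 2, so the size of the trial 1 difference is not measured.

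For the other classes the smallest unadjusted p belonged to UBE2E2 (0.51 ± 0.23), UBE2R2 (-0.20 ± 0.15) and UBE2G2 (-0.25 ± 0.19), and to USP11 (0.84 ± 0.38), USP10 (-0.16 ± 0.13) and USP16 (-0.14 ± 0.12). USP11 read 1.81 in trial 1 and -0.14 in trial 2, so its trials disagreed. The catalytic subunits stayed below the threshold, with PSMB7 at -0.38 ± 0.19 and an interval from -0.79 to 0.02. Among the genes not tested, PSMB8 was within the Tag controls in all these arrays. PSMB10 read 31.5 and 39.99 in anti-DJ1 and 5.30 and 13.9 in IgG embryos, with only the second value above the Tag controls, so no fold is given. USP18 read 44.9 and 46.0 against 4.63 and 27.5, at least 1.45-fold higher. For both, the anti-DJ1 arrays were the higher in each trial, with no test.

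**Figure D4:**
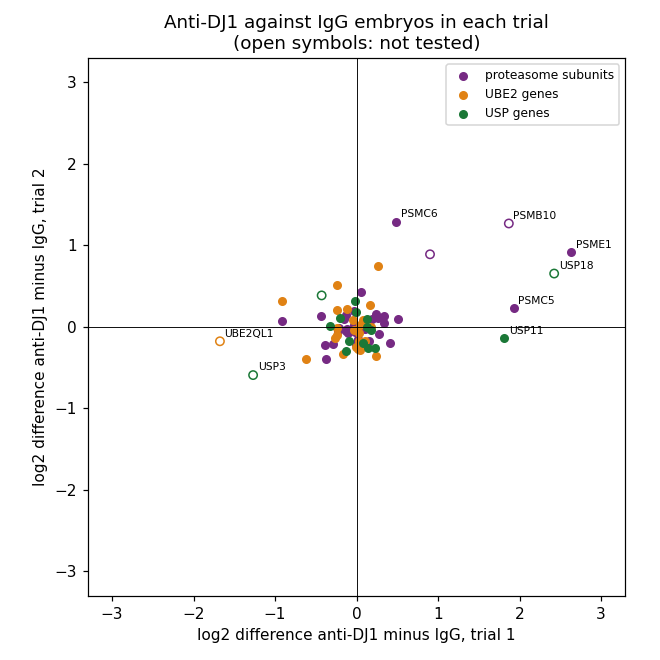
For each of the 77 genes the log2 difference of the anti-DJ1 from the IgG array is plotted for trial 1 (x axis) and trial 2 (y axis), with open symbols for the 6 genes not tested and names for genes at least 1 from 0 in a trial. Most points crowd around 0, and PSME1 (2.63 and 0.91) and PSMC6 (0.49 and 1.29) lie in the upper right.

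Injection itself was addressed by setting each injected group against the non-injected array, which both comparisons share. For IgG embryos 2 of 71 genes passed, both higher, where 1.26% of all tested probe sets passed, 0.917% higher and 0.347% lower. For anti-DJ1 embryos 3 passed, all higher, where 1.92% passed, 1.26% higher and 0.653% lower. None of these 5 calls held in the fit without trial, without the mean-variance trend, with no filter on low values, or without any 1 injected array.

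Against non-injected embryos, the catalytic subunit PSMB7 was higher in IgG embryos at 1.25 ± 0.25 (adjusted p = 0.036), with signals of 279 and 295 against 115, and within trial 1 alone the change was 1.25. In anti-DJ1 embryos PSMB7 was at 0.87 ± 0.25 (adjusted p = 0.089). UBE2M was higher in IgG embryos (adjusted p = 0.044), with 88.3 and 61.9 against 6.18, which is within the Tag controls, so within trial 1 the rise was at least 1.88-fold. In anti-DJ1 embryos it read 44.8 and 78.2 (adjusted p = 0.053), and the first value lay under the non-injected background limit of 47.0, so no fold is given.

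In anti-DJ1 embryos the genes past the threshold were PSMB1, UBE2K and USP9X. PSMB1, a beta subunit, was at 0.74 ± 0.15 (adjusted p = 0.038), with 3018 and 3504 against 1779, and at 0.59 ± 0.15 (adjusted p = 0.079) in IgG embryos. UBE2K was at 1.54 ± 0.34 (adjusted p = 0.046), with 152 and 134 against 56.9, and at 1.41 ± 0.34 (adjusted p = 0.067) in IgG embryos. USP9X, an X-linked protease known from early development, was at 0.75 ± 0.16 (adjusted p = 0.038), with 3535 and 3456 against 2169, and at 0.66 ± 0.16 (adjusted p = 0.065) in IgG embryos. A second USP9X probe set passed in both, at 2.89 ± 0.40 (adjusted p = 0.0078) and 2.23 ± 0.40 (adjusted p = 0.029), although it read 1617 and 569 in anti-DJ1, 1862 and 194 in IgG and 290.2 in non-injected embryos, so that the trial 2 IgG array lay below the non-injected array. On the probe sets chosen by the highest mean, for each of these 5 genes all 4 injected arrays lay above the non-injected array, which held for 26 of the 77 genes in all and for 24.96% of all probe sets. The opposite held for 11 genes and 22.4% of probe sets. The injected arrays include those of trial 2, while the non-injected array is of trial 1, so these counts mix trial with injection. The median change from trial 1 to trial 2 was 0.43 over the 77 genes and 0.12 over all probe sets. The 5 genes had passed against this same non-injected array, so their pattern is no separate evidence.

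In the USP class, where none of the chosen probe sets passed for IgG embryos, USP10 (0.51 ± 0.17) and USP24 (-0.39 ± 0.18) had the next smallest p after USP9X. Of the pathway lists 1 gene passed, NSFL1C, a VCP cofactor, in both comparisons. It read 99.2 and 324 in anti-DJ1, 111 and 329 in IgG and 18.7 in non-injected embryos, the last within the Tag controls, so within trial 1 it was at least 2.11-fold higher in anti-DJ1 and 2.37-fold in IgG embryos (adjusted p = 0.012 and 0.011).

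**Figure D5:**
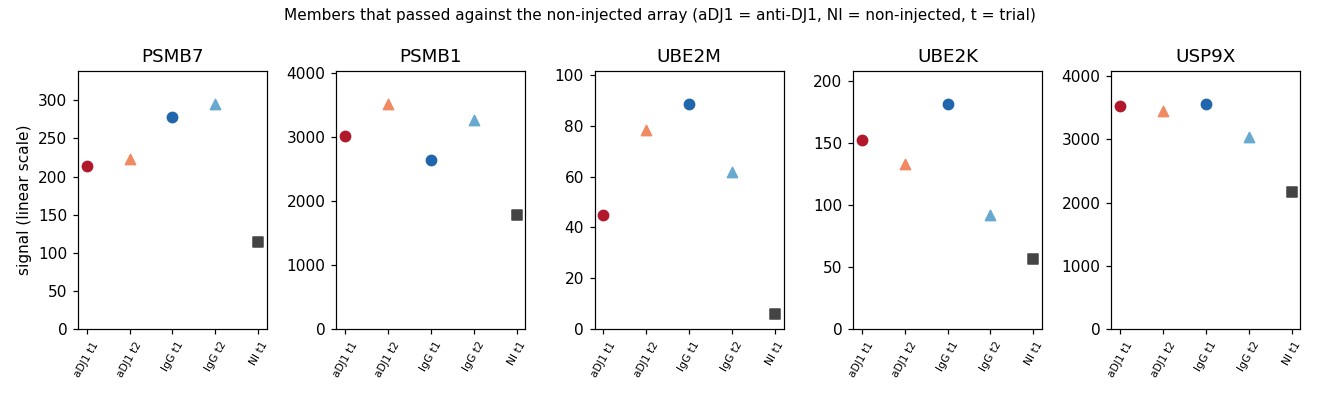
Deposited signal (y axis, linear scale from 0) of the 5 genes that passed against the non-injected array in either comparison, on the 5 embryo arrays (x axis; aDJ1 is anti-DJ1, NI non-injected, t the trial). The non-injected array (square) is the lowest in every panel, at 115 for PSMB7 and 6.18 for UBE2M.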

How the data were processed

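Each of 6 pig RNA samples (50 ng of total RNA, amplified in 2 cycles) was run on its own Affymetrix Porcine Genome Array, per the labels' protocols. Per the submitters' processing notes MAS5 was used, and the deposited table holds linear intensities per probe set. The MAS5 version and scaling target were not given in the sources used here. Each array's mean without its lowest and highest 2% lay between 500.1 and 500.2, so the arrays share a scale. No column of values lacked a sample.

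Of 24123 probe sets, 124 controls were left out. Values became log2(signal + 4.57), the 10th percentile of all signals, which understates changes of dim genes. The upper 60% by mean (14399 probe sets, mean signal above 39.6) were tested with limma 3.58.1 in R 4.3.3 (lmFit, eBayes with trend), two-sided, with group and trial as terms, 1 residual and 10.7 prior degrees of freedom, and a Benjamini-Hochberg threshold of 0.05. The script was tested on simulated data. Precision is limited by how few arrays there are. Trial is the block, since the series' design text sets each anti-DJ1 array against the IgG array run with it; their deviations from the group mean correlated at r = 0.588 (14399 probe sets). Bounds ("at least") use each array's highest Tag control where a gene was within it on every array of a group, within trial 1 where a group has only that trial.

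Gene symbols come from the platform annotation, which can be old; 74 of 77 matched a RefSeq gene (Sscrofa11.1), all with the same symbol. The genes and all lists were chosen with earlier results of these data known, so no list was tested. The rule named 21 genes by function (catalytic, immunoproteasome and activator subunits among them), every passing gene of a class with up to 12 and otherwise the 8 largest in each direction, the 3 smallest p where none passed, and up to 4 passing genes in each direction per pathway list. Any other gene named was chosen after its values were seen. The marker lists were oocyte and early embryo, fibroblast, cumulus and granulosa, and leukocyte. The pathway lists were assembly factors and inhibitor, E1 and ubiquitin-like genes, other deubiquitinases, cullin-RING ligases, anaphase-promoting complex, other ligases, and shuttle factors. The alternatives changed the pseudocount, filter, scaling, trend, block and arrays.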

Additional observations from a re-analysis of the deposited data

How the results depend on the processing

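Between embryos and donor cells, the common 75th percentile turned PSMA1 to 0.12, PSMA2 to 0.54, PSMA5 to 0.40, PSMB1 to 0.047, PSMD12 to 0.52, PSMD2 to 0.20 and PSME4 to 0.15 on the log2 scale. When 1 embryo array was left out in turn, PSMD2 ran from -0.61 to 0.19 and was above 0 when either trial 1 injected array was missing (0.18 for the IgG array). The proteasome median moved to -0.34 with that percentile. The UBE2 median moved to 1.57 with it, 0.67 after quantile normalization and 1.03 with no replicate block, and the USP median to 1.04, 0.73 and 0.64. Over the same left-out arrays the USP median ran from 0.44 to 0.65. The passing genes ran from 37 to 57 in all, 16 to 25 proteasome genes and 5 to 11 USP genes. The share of all tested probe sets that passed moved with them, from 52.4% to 71.6%. These counts and the share were highest without the non-injected array. With no replicate block 6 USP genes passed, where 53% of all tested probe sets passed.

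Against non-injected embryos, the count for IgG (2) became 6 with the pseudocount at the 25th percentile, 7 with the upper 40% of probe sets, 4 with the common 75th percentile and 0 with no filter, no trend or no replicate block. For anti-DJ1 (3) it became 5 and 6 with the first pair and 0 with the last 3. The share of all probe sets that passed moved too: for IgG (1.26%) to 3.1%, 7.56%, 2.17%, 0.2%, 0% and 0%, and for anti-DJ1 (1.92%) to 4.09%, 9.15%, 3.24%, 0.296%, 0% and 0% under the same 6 settings. The calls of the genes described here did not hold without any 1 injected array. Without the donor array 3 of these genes passed for IgG and 2 for anti-DJ1, where 2.52% and 3.06% of all tested probe sets passed. Over left-out arrays the IgG medians ran from 0.052 to 0.62 (proteasome), -0.14 to 0.20 (UBE2) and 0.11 to 0.48 (USP), each highest without IgG replicate 1. The anti-DJ1 medians ran from 0.062 to 0.70, -0.25 to 0.10 and 0.074 to 0.51, each highest without anti-DJ1 replicate 1. The anti-DJ1 UBE2 median moved to 0.00049 after quantile normalization and to 0.015 with no replicate block, the USP median to 0.37 with no replicate block.

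For anti-DJ1 against IgG embryos no gene described here passed under any alternative run. Over all tested probe sets, 43 of 9600 (0.448%) passed with the upper 40% of probe sets, and at most 2 under any other setting. Over left-out arrays the medians ran from -0.28 to 0.33 (proteasome), -0.15 to 0.092 (UBE2) and -0.13 to 0.12 (USP), and the USP median was 0.020 over the mean of all probe sets of a gene. The cause of these moves was not tested, except that fits without an injected array also lose the trial term. Signal over background limits PSMB8, PSMB10, PSMC5, PSME1, UBE2M, USP3 and USP18 in embryos.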
